A study of Mus musculus with 2 samples.

Results

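The peaks described here are 643 CTCF binding sites at the annotated starts of long intergenic noncoding RNAs (lincRNAs) in newborn mouse stomach. A peak of the authors' optimal list was taken when its summit lay within 1 kb of a transcript start of a GENCODE M21 gene of type lincRNA and more than 5 kb from the start of every transcript of every protein-coding gene. Only the 19 autosomes were used. The 643 peaks were 0.887% of the 72514 autosomal optimal peaks (exact Clopper-Pearson 95% interval 0.820 to 0.958), and they lay at 584 lincRNA genes. A further 326 optimal peaks lay within 1 kb of a lincRNA start but within 5 kb of a coding start, and were not taken. The rule used positions and the annotation, and no measured signal.

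CTCF was mapped by ChIP-seq, which sequences the DNA recovered with a protein by an antibody, in stomach tissue of the B6NCrl strain at postnatal day 0. There was 1 group with 2 biological replicates and no treatment or genetic change is named. The labels give the same donor and the same tissue sample for both replicates, so the spread between them may be technical, and the sex was not collected. The control libraries are not analysed here, and no RNA was measured, so each lincRNA start is one of the annotation and its use in this tissue is unknown. The whole stomach was used, so a peak cannot be assigned to epithelium, muscle, nerve or blood. The signal deposited for a peak is a value the authors computed. It ranks peaks within a list, and read depth is unknown. The 72514 autosomal optimal peaks had a median signal of 76.3, with a highest value of 677.

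CTCF is a zinc finger protein that binds a long, asymmetric DNA motif and halts the cohesin complex as it extrudes chromatin loops, so the strand of the motif sets which side of a site a loop can be anchored from. Many CTCF sites lie between genes, and others lie at promoters, where binding often occurs in open, CpG-rich sequence. LincRNAs are mostly spliced, polyadenylated transcripts outside coding genes. Some act in the nucleus, some are processed into small RNAs, and for many no function is known.

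The motif was derived from the data as a matrix of 19 positions, with the consensus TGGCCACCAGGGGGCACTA from 961 alignable windows among the 1000 strongest peaks of chromosome 1. Peaks of chromosome 1 were scored with a matrix built in the same way from chromosome 2. A peak had the motif when either strand of the sequence within 50 bp of its summit reached a score that 1% of shuffled windows reached. The 8 sequences that follow are from the strongest peaks with the motif after that of AC113104.3, whose sequence is not shown. They display variation around the consensus among high-scoring matches, with scores of 19.5 to 26.6. Each is 59 bases of GRCm38, read from the RefSeq assembly on the strand of the motif, with the match in capitals. They are Gm12052 (chr11:22617743-22617801, minus strand), Gm26812 (chr8:121851134-121851192, plus), Gm33195 (chr13:43864744-43864802, plus), Gm31408 (chr9:31559636-31559694, plus), 4833412C05Rik (chr7:67803710-67803768, plus), 4930478P22Rik (chr5:35361979-35362037, plus), Gm37584 (chr3:88526405-88526463, minus) and Gm17382 (chr17:26886275-26886333, minus).
Gm12052: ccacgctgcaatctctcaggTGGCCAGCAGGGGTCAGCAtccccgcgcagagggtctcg
Gm26812: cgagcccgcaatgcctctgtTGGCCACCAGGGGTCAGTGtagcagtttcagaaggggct
Gm33195: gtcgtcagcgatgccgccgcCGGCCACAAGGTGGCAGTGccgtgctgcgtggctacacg
Gm31408: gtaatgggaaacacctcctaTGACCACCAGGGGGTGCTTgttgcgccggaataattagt
4833412C05Rik: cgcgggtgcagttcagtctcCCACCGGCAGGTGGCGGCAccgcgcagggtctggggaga
4930478P22Rik: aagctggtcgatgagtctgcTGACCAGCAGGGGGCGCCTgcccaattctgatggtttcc
Gm37584: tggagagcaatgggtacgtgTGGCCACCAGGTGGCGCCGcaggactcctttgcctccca
Gm17382: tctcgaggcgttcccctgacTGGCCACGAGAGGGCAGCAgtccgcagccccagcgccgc

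The strongest 2 peaks without the motif are shown for contrast, with the best-scoring 19 bases in capitals although they miss the threshold. They are AC122818.2 (chr17:87571784-87571842, minus strand) and Gm31812 (chr1:52113899-52113957, minus strand). The scores were 5.60 and 1.90, against thresholds of 9.35 for the matrix of chromosome 1 and 9.42 for that of chromosome 2.
AC122818.2: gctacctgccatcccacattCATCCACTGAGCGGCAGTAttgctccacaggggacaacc
Gm31812: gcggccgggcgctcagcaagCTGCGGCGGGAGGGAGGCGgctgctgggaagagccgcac

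Sites at 3 lincRNAs with known roles are shown as well, chosen after their values were seen. Snhg12 (chr4:132310069-132310127, minus strand) hosts small nucleolar RNAs, Mir17hg (chr14:115042202-115042260, minus strand) hosts an oncogenic microRNA cluster, and Meg3 is an imprinted lincRNA expressed from the maternal chromosome. Meg3 had a downstream peak (chr12:109543016-109543074, minus strand) and an upstream peak (chr12:109542147-109542205, plus strand), so the 2 Meg3 motifs lay on opposite strands. Downstream and upstream refer here to the nearest of its 11 annotated starts and not to the 5′ end of the gene. Both summits lay in a lincRNA exon, and no optimal peak lay closer to the Meg3 5′ end than 1177 bp.
Snhg12: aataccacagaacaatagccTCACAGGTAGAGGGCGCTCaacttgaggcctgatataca
Mir17hg: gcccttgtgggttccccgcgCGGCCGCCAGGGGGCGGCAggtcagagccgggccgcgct
Meg3 downstream peak: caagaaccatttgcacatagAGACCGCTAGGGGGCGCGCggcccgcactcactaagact
Meg3 upstream peak: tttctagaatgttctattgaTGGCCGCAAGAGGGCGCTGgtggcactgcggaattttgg

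The strongest sites at lincRNA starts were among the strongest CTCF sites of the tissue. Signals of the 643 peaks ran from 5.43 to 628, with a median of 97.4 and quartiles of 35.2 and 295, and 102 of them were among the strongest 10% of autosomal peaks. The highest signal was that of AC122818.2, at 628, the 23rd strongest of all autosomal peaks. Its summit lay 145 bp upstream of the start (of the nearest start, where a gene has several, as for all distances given), and its signals were 331 and 303 in the relaxed lists of replicates 1 and 2. AC113104.3, a lincRNA that contains an annotated small RNA gene, followed with 605 (333 and 275 in the replicates), 453 bp upstream of its start.

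Gm12052 had a signal of 574 (319 and 260), and its summit lay in an exon 362 bp downstream of the start. Gm26812 had 571 (328 and 245), in an intron, 718 bp upstream of the nearer of its 2 starts and 971 bp downstream of the other, and inside the span of a coding gene. Gm33195 had 561 (330 and 233), in an exon 100 bp downstream of a CpG-rich 5′ end. Each of these had a signal in both replicates far above the lower quartile of the 643 peaks, and the replicate 1 value was the higher in all of them, in lists that are not scaled to each other.

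Gm31408 had a signal of 558 (311 and 250) only 36 bp downstream of its start. The summit of 4833412C05Rik, with 545 (302 and 245), lay 249 bp upstream of the nearest start, in a lincRNA intron. Gm31812 had 540 (309 and 237), 210 bp upstream of a CpG-rich 5′ end. The nearest coding start to the Gm31812 summit was 5479 bp away, close to the limit of the rule. At 4930478P22Rik the signal was 540 (288 and 255), in an exon. The Gm37584 peak, with 536 (288 and 250), lay 953 bp downstream, and those of Gm17382 (532) and Gm38534 (521) lay 96 bp and 948 bp upstream. These 12 strongest peaks thus spread over the whole 1 kb on either side of a start, and 10 of the 12 had the motif.

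Among further lincRNAs with a large peak, Gm49317, a small RNA host, had a signal of 507 (275 and 236) 45 bp upstream of its start. Zfp469, which carries a zinc finger gene symbol but is typed as lincRNA in this annotation, had 495 (298 and 199). Tbx3os2, which is named as a transcript opposite the limb and heart regulator Tbx3, had 385 (222 and 166), 104 bp upstream. Its nearest coding start was 11073 bp away. A730043L09Rik had 447, D5Ertd615e 349, Gm20754 355, D5Ertd605e 175, Mannr 160, 2900076A07Rik 139 and Platr1 109, and all of these had the motif. Rncr4 had 168 (114 and 56.6) and no motif, with a best score of 7.30.

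At the other end, the lowest signals were those of AC141471.3 (5.43), Gm6410 (7.63) and A230028O05Rik (9.08). No summit of AC141471.3 or A230028O05Rik was found in the whole replicate 1 list, and none of Gm6410 in that of replicate 2. None of the 3 had the motif, and the GC content within 50 bp of their summits was 72.3%, 73.3% and 74.3%, against a median of 53.5% for the 643 peaks. In all, 43 of the 643 peaks had a signal under 20, and 10 of those 43 had the motif (23.3%, interval 11.8 to 38.6). The same shares over all autosomal peaks are not given here. In the lowest quartile of signal, below 34.8, the motif was found in 58.3% of all autosomal peaks and 38.2% of the lincRNA-start peaks.

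CTCF peaks were denser at lincRNA starts than elsewhere away from coding genes, and densest within 100 bp of the start. The positions that meet the rule were 10.2 Mb, or 0.424% of the 2396 Mb of autosomal sequence outside gaps, so the 0.887% of peaks found there was 2.09 times the share that uniform placement gives. The 643 peaks amounted to 63.3 per Mb, against 22.4 per Mb for the 45558 other peaks more than 5 kb from coding starts, a ratio of 2.83. The ratio was 2.50 for positions 5 to 20 kb from a coding start (97.6 against 39.1 per Mb), 2.79 at 20 to 100 kb (73.4 against 26.3) and 3.98 beyond 100 kb (37.6 against 9.43). LincRNA starts far from coding genes thus had fewer peaks per Mb, but so had the other autosomal sequence at the same distances from coding starts. These densities are counts over sequence and carry no test, and sequence in which short reads cannot be placed was not removed.

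By distance, 140 summits lay within 100 bp of a start, a density of 127 peaks per Mb. The density was 71.2 per Mb at 100 to 250 bp, 57.1 at 250 to 500 bp and 49.8 at 500 bp to 1 kb. Outside the limit of the rule it was 36.1 per Mb at 1 to 2 kb, 34.7 at 2 to 5 kb and 27.0 at 20 to 50 kb. Peaks with and without the motif were both densest next to the start. Those with the motif went from 86.2 per Mb within 100 bp to 22.2 per Mb at 20 to 50 kb, and those without it from 40.8 to 4.77 per Mb. The motif was present in 67.9% of peaks within 100 bp (interval 59.4 to 75.5) and 82.3% of those at 20 to 50 kb (81.3 to 83.4). The median signal was 133 within 100 bp, 81.8 at 500 bp to 1 kb and 79.0 at 20 to 50 kb.

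**Figure D1:**
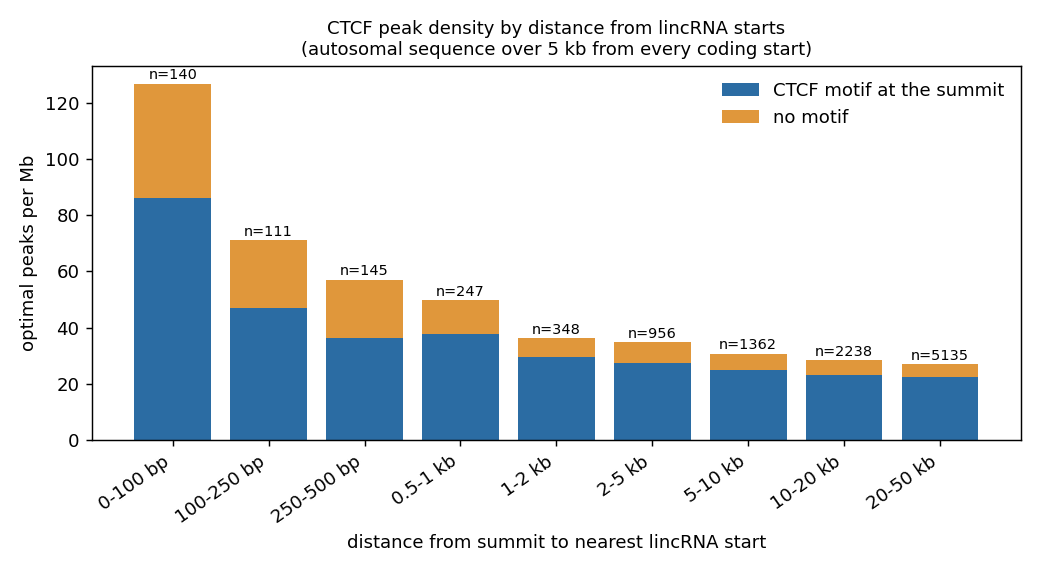
Optimal CTCF peaks per Mb (vertical axis) in bands of distance from the nearest lincRNA start (horizontal axis), over autosomal sequence more than 5 kb from coding starts, split by the CTCF motif, with the number of peaks above each bar. The 4 bands within 1 kb hold the 643 peaks at lincRNA starts, and density goes from 127 per Mb in the first band to 27.0 per Mb in the last.

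The peaks lay more often upstream than downstream of the start. Of 626 peaks whose lincRNA starts within 1 kb were all on 1 strand, 354 lay upstream (56.5%, interval 52.6 to 60.5), against 50% for an even split (exact two-sided binomial test, p = 0.00119, Benjamini-Hochberg adjusted p = 0.00187 over 11 tests). With 1 nearest peak per gene the upstream share was 58.0% (exact binomial test, adjusted p = 0.000326). The excess lay close to the start: 140 summits were within 200 bp upstream and 68 within 200 bp downstream, whereas beyond 200 bp there were 214 upstream and 204 downstream. Position is relative to the nearest start: 44 of the 354 upstream summits lay inside the span of their own lincRNA gene, past another of its starts, and 310 lay outside it. The closest summits were those of Gm29318 and Gm26634, at 1 bp, and Gm38293 and Gm12866, at 2 bp. Gm29318 had a signal of 195 (107 and 87.6) although its nearest coding start was 1085956 bp away, the farthest of the 643 peaks. Gm26634 had 21.8 (12.6 and 7.20) and no motif, and Gm38293 had 323 (178 and 142) with one. Gm12866 had 113 (64.4 and 47.4) and no motif. Upstream peaks had the motif in 72.6% of cases (257 of 354) and a median signal of 121, and downstream peaks in 65.1% (177 of 272) and a median signal of 75.4.

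**Figure D2:**
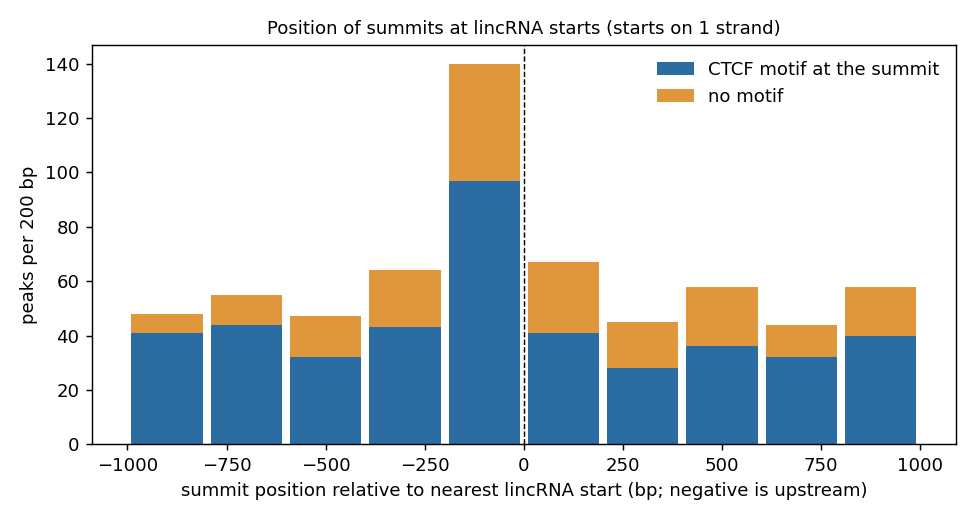
Number of peaks per 200 bp (vertical axis) by the position of the summit relative to the nearest lincRNA start in bp (horizontal axis, negative is upstream), for the 626 peaks with starts on 1 strand, split by the CTCF motif. The bin just upstream of the start holds 140 peaks, and each of the other 9 bins holds between 44 and 67.

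The motif pointed along the lincRNA slightly more often than against it. Among 434 peaks with the motif and starts on 1 strand, 243 had it on the strand of the lincRNA (56.0%, interval 51.2 to 60.7, exact two-sided binomial test, adjusted p = 0.0196). Upstream of the start the counts were 147 on the lincRNA strand and 110 on the other, and downstream they were 96 and 81. Gm26812, Gm33195 and Gm31408 are examples with the motif on the lincRNA strand, and Gm12052 and 4833412C05Rik are examples with it on the other. By the same exact test the strand result did not pass at 5% when only gene 5′ ends were used (54.9%, adjusted p = 0.0728) or without replicate 1 (54.95%, adjusted p = 0.0566).

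In how often they carried the CTCF motif, the peaks at lincRNA starts lay between coding starts and distal sites. The motif was found in 446 of 643 (69.4%, interval 65.6 to 72.9), beside 77.9% of all autosomal optimal peaks. It was found in 57.0% of the 13272 peaks within 1 kb of a coding start (56.1 to 57.8), 12.4 percentage points less than at lincRNA starts (Fisher's exact test, two-sided, adjusted p = 7.57e-10). Of 39529 distal peaks, which lay more than 5 kb from every annotated transcript start, 83.1% had it (82.7 to 83.5), and the lincRNA-start peaks differed from them by -13.7 points (Fisher's exact test, adjusted p = 1.46e-16). In windows 1 kb away from the summits of the 643 peaks the motif was found in 3.19%. Where present, its centre lay within 10 bp of the summit in 76.5% of the 446 peaks, against 65.9% at coding starts and 77.4% at distal sites. The median GC content within 50 bp of the summit followed the same order, with 61.4% at coding starts, 53.5% at lincRNA starts and 50.5% at distal sites, and its part in the motif shares was not tested.

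Peaks with the motif were the stronger ones. Their median signal was 171, against 35.6 for the 197 peaks without it. In the lowest quartile of signal over all autosomal peaks, 38.2% of 157 lincRNA-start peaks had the motif, against 32.5% of coding-start and 66.5% of distal peaks. In the next quartile the share was 60.4% of 134, against 51.1% and 79.3%. It was 77.5% of 160 in the one after, against 68.5% and 88.9%, and 94.3% of 192 in the top quartile, against 90.3% and 96.5%. By point value the lincRNA-start peaks thus stood between the other classes in each quartile, and the classes were closest among the strongest peaks. The interval for lincRNA-start peaks took in the coding-start share in the lowest quartile (30.6 to 46.3). In the top quartile (90.0 to 97.1) it took in both other shares. The order within quartiles was not tested. The matrix itself came from strong peaks of another chromosome, and how that choice bears on this gradient was not tested.

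**Figure D3:**
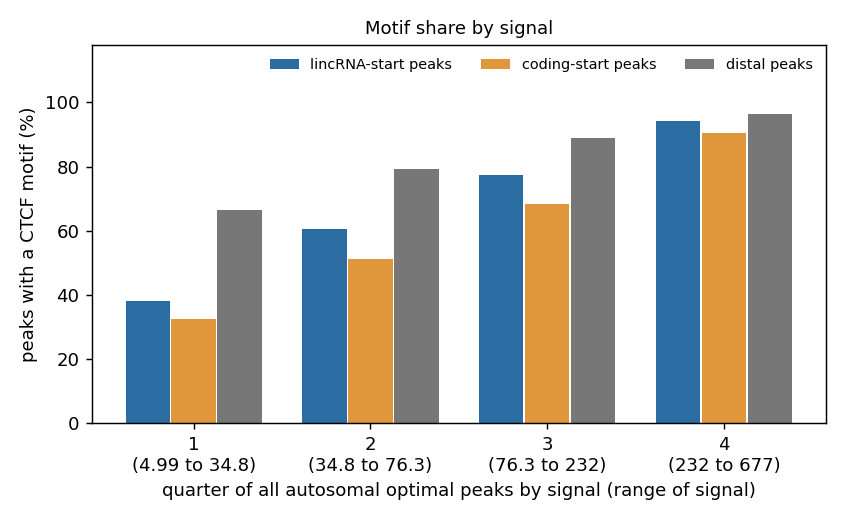
Share of peaks with a CTCF motif in percent (vertical axis) in quartiles of signal over all autosomal optimal peaks (horizontal axis), for peaks at lincRNA starts, at coding starts and at distal sites. The share at lincRNA starts goes from 38.2% in the lowest quartile to 94.3% in the highest, by point value between the other classes in each.

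LincRNA-start peaks were stronger than coding-start peaks. A signal above the median of all autosomal peaks, which by construction 50% of them have, was found in 352 of 643 lincRNA-start peaks (54.7%, interval 50.8 to 58.6) and 42.7% of coding-start peaks, a difference of 12.1 points (Fisher's exact test, adjusted p = 4.21e-09). Against the 51.1% of distal peaks the difference was 3.66 points and did not pass (Fisher's exact test, adjusted p = 0.0824), while it passed with the conservative list (5.18 points, adjusted p = 0.0147), with starts within 500 bp, with gene 5′ ends only and without replicate 1. The medians were 97.4 at lincRNA starts, 60.0 at coding starts and 79.9 at distal sites.

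The 197 peaks without the motif included some of the strongest sites. After AC122818.2 and Gm31812 came Gm26751, with a signal of 452 (249 and 205) and a best score of 7.27, Gm13003, with 427 (243 and 184) and 7.03, and Gm15892, with 419 (238 and 182) and 3.30. All 5 were in exons or just outside the lincRNA, and none reached the threshold within 100 bp of the summit. Of the 197, 8 had a motif once the window was widened to 100 bp on either side. The threshold for a window of that length was set anew and is higher, and with it 63.8% of all 643 peaks had the motif. These named peaks had signals in both replicates as high as peaks with the motif, so the absence of a match says only that these letters were not found in this window.

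Peaks with a summit in soft-masked repeat sequence were 91 of 643 (14.2%), against 9.32% at coding starts and 24.3% at distal sites. The motif was found in 85.7% of the 91 (interval 76.8 to 92.2) and 66.7% of the 552 others (62.6 to 70.6). Platr1, a transcript named for its link to pluripotent cells, is one of the 91. By gene structure, 141 summits lay in an exon of a lincRNA, 214 in an intron and 288 outside every lincRNA, with the motif in 72.3%, 65.4% and 70.8%. Starts of lincRNAs on both strands lay within 1 kb of 17 peaks, and 32 peaks lay within the span of a coding gene, although more than 5 kb from its starts.

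Peaks at CpG-rich lincRNA starts had the motif less often by count. A 5′ end was called CpG-rich when the 500 bp around it had a GC content of at least 55% and an observed/expected CpG ratio of at least 0.65. The motif was present in 25 of 52 peaks at such ends (48.1%, interval 34.0 to 62.4) and in 421 of 591 others (71.2%, 67.4 to 74.9), a difference that was not tested. The median signals were 46.7 and 105. Among the named sites, Gm33195 and Gm17382 are CpG-rich with the motif, and Gm31812 and Gm6410 are CpG-rich without it.

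A minority of lincRNA genes had a CTCF peak at a start. Of the 5209 autosomal lincRNA genes, 4608 had sequence that could meet the rule, and 584 of them (12.7%, interval 11.7 to 13.7) had a peak that met it. Of the 584, 517 had 1 peak, 58 had 2, 7 had 3 and 2 had 4. The 4 peaks of A830008E24Rik had signals of 397, 205, 39.4 and 31.8, and the 2 outside the lincRNA, at 397 and 205, had the motif. AC141471.3 also had 4, with signals of 48.6, 34.1, 20.9 and 5.43, and none of them had the motif. Gm36283 had strong peaks at 2 of its starts, with signals of 317 (176 and 142) and 294 (177 and 116).

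Sequence near the 5′ end differed between lincRNA genes with a peak and those without. The 531 genes with an optimal summit within 1 kb of the 5′ end were compared with the 3999 that had none near any start. A motif match within 1 kb, at a stricter threshold met by 0.1% of shuffled windows, was found in 57.3% of the first (304 of 531, interval 52.9 to 61.5) and 7.35% of the second (294 of 3999, 6.56 to 8.20; Fisher's exact test, adjusted p = 4.76e-155). A CpG-rich 5′ end was found in 8.10% (5.92 to 10.8) and 1.40% (1.06 to 1.81; Fisher's exact test, adjusted p = 2.83e-15). The base at the 5′ end lay in repeat sequence in 11.5% (8.90 to 14.5) and 23.3% (22.0 to 24.6; Fisher's exact test, adjusted p = 1.84e-10). The motif was derived from the strongest CTCF peaks of these data, and CTCF peaks of the same data defined the groups of genes. A higher motif share at genes with a peak was therefore built into the comparison. The motif shares are a description, and their p-value cannot count as independent evidence of a sequence difference. Genes are not independent replicates. The nearest coding start also differed, with medians of 40690 bp for genes with a peak and 75273 bp for those without.

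Read the other way, and with the same limits, 308 of the 616 eligible genes with such a motif had a peak (50%, interval 46.0 to 54.0), against 276 of 3992 without it (6.91%, 6.15 to 7.75). A peak was present at 45 of 110 genes with a CpG-rich 5′ end (40.9%, 31.6 to 50.7), and among the 85 of these that lacked the motif it was present at 29 (34.1%, 24.2 to 45.2). The share was 10.9% of genes with a single annotated start and 29.2% of those with 5 or more, which have more sequence in which a peak can be counted. It was 17.1% where the nearest coding start was within 20 kb, 15.0% at 20 to 100 kb and 7.97% beyond 100 kb.

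**Figure D4:**
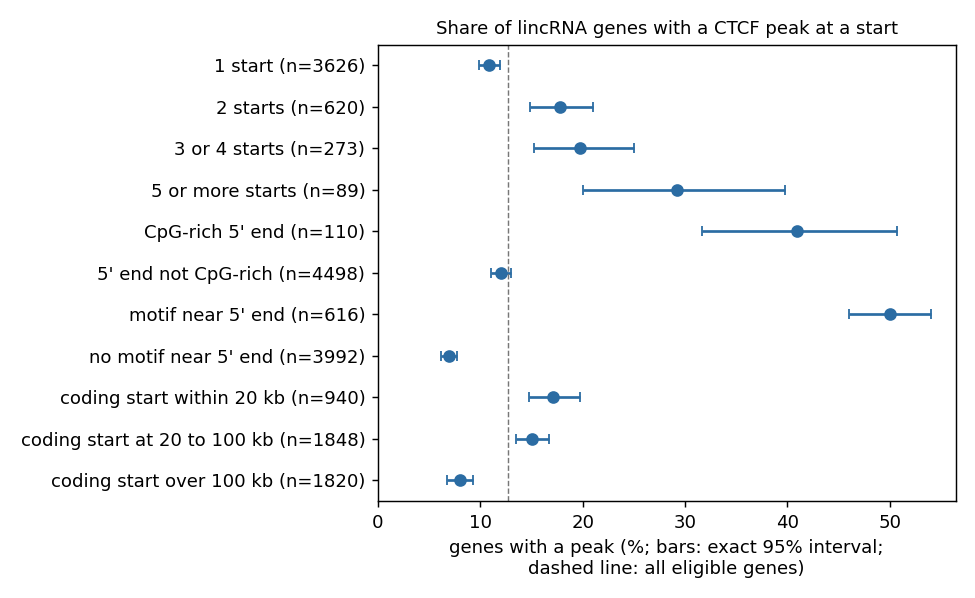
Share of eligible lincRNA genes with a CTCF peak at a start in percent (horizontal axis), by number of starts, CpG-rich 5′ end, motif near the 5′ end and distance to the nearest coding start (rows), with exact 95% intervals and the share over all 4608 genes as a dashed line. Genes with a motif (50%) and CpG-rich genes (40.9%) lie farthest above the 12.7% of all genes.

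Some lincRNA genes without an optimal peak had weaker peaks at the 5′ end in both replicates. The relaxed lists, which hold 300000 peaks each and include many weak ones, placed a summit within 1 kb of the 5′ end in both replicates at 488 of the 3999 genes (12.2%, interval 11.2 to 13.3). At points 20 kb upstream and 20 kb downstream of the 5′ ends, the share was 6.64% (5.83 to 7.53) and 6.00% (5.23 to 6.84). A gene without an optimal peak is thus a gene without a site above the authors' threshold, and 12.7% is the share under the rule at that threshold. Eligible genes whose optimal peaks near a start all lay within 5 kb of a coding start, such as Epb41l4aos, are in neither the 584 nor the 3999.

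Host genes of small RNAs, which hold an annotated microRNA or small nucleolar RNA gene on their strand, had a peak in 23 of 88 eligible genes (26.1%, interval 17.3 to 36.6), beside 12.7% of all eligible lincRNA genes. The difference was not tested, and hosts were not matched to other lincRNA genes by number of annotated starts. Over all eligible genes the share was 10.9% with 1 start and 29.2% with 5 or more. The peaks of Snhg12 and Mir17hg had the motif shown above. Snhg12 had a signal of 267 (153 and 112), 92 bp upstream of a start and in a lincRNA exon. The nearest optimal peak to the Snhg12 5′ end lay 1472 bp away. Mir17hg had 243 (157 and 85.8), 628 bp upstream of its start. 2700038G22Rik had 304 (175 and 131) at a CpG-rich 5′ end, and Snhg20, another host of small nucleolar RNAs, had 54.3 at 17 bp from a start and no motif. Of the 94 hosts, 6 had no sequence that could meet the rule.

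Of 3 imprinted lincRNAs on the list that were typed as lincRNA and eligible, Meg3 had peaks and H19 and Mirg had none. Meg3 had 3 peaks at its 11 annotated starts. The strongest had a signal of 215 (138 and 76.6), 779 bp downstream of the nearest start. The next had 156 (81.4 and 72.0), in a lincRNA exon 90 bp upstream of its nearest start. The last had 27.6 (16.0 and 9.77), 997 bp from a start and without the motif. No optimal peak lay closer to the Meg3 5′ end than 1177 bp. H19, which lies beside an imprinting control region known for CTCF binding, had its nearest optimal peak 1123 bp from the 5′ end, and the microRNA host Mirg had it 20419 bp away.

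Abundant nuclear and stress-related lincRNAs had peaks at 3 of 8 eligible genes, and all were of modest signal. Neat1, the scaffold of paraspeckles, had 3: the 2 nearest its 5′ end had signals of 70.4 (36.1 and 34.5) and 60.4 (30.5 and 32.0), 199 bp and 873 bp upstream, without the motif, and the other, of 43.3 (27.9 and 14.1), had it. Malat1, which localises to nuclear speckles, had 18.5 (5.53 and 15.1), 18 bp upstream of its start and without the motif. Lncpint, a lincRNA induced by p53, had 24.6 (17.8 and 7.07) with the motif. All of these signals lay below the median of the 643 peaks, and those of Malat1 and Lncpint were not found in both replicates by the criterion used for the replicates. The nearest optimal peaks to the 5′ ends of 2900097C17Rik, Lncenc1, Lockd and Miat lay 1492, 1665, 7825 and 11555 bp away.

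Developmental lincRNAs had peaks at 3 of 10 eligible genes. Besides Mir17hg these were Bvht, a lincRNA of heart development, with 22.4 (13.9 in replicate 1 and no summit in replicate 2), and Platr4, with 35.1 (17.3 and 16.5). Hotair, a lincRNA of the HoxC cluster, had its nearest optimal peak 4267 bp from the 5′ end, Carmn, a lincRNA of smooth muscle, 1034 bp, and Mir142hg and Mir155hg, which host microRNAs of blood cells, 4214 and 32184 bp. Each of these 3 lists holds 10 or fewer eligible genes, so their shares cannot be told apart from 12.7% by their intervals, which run from 0.840% to 90.6% for the imprinted list, 8.52% to 75.5% for the nuclear list and 6.67% to 65.2% for the developmental list.

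The 643 peaks were found in the replicates about as often as other optimal peaks. A peak was counted as found when a summit lay within 100 bp among the 74283 peaks of highest signal of that replicate. By this criterion 572 were found in replicate 1, 565 in replicate 2, 524 in both (81.5%, interval 78.3 to 84.4) and 30 in neither. The share in both was 83.1% for all autosomal optimal peaks, and the difference from the other peaks was -1.64 points (Fisher's exact test, adjusted p = 0.267). A peak of the conservative list overlapped 559 of the 643 (86.9%, 84.1 to 89.4), beside 88.8% of all autosomal optimal peaks, and the difference from the other peaks was -1.86 points (Fisher's exact test, adjusted p = 0.163). Neither difference passed, which does not show that the shares are equal.

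The median signal was 21.9 for the 119 peaks that were not found in both replicates and 145 for the 524 that were, and the motif was present in 38.7% (interval 29.9 to 48.0) and 76.3% (72.5 to 79.9). Over the full relaxed lists, 624 of the 643 had a summit in both, 8 had none in replicate 1, 11 had none in replicate 2 and none lacked both. Across these 624 peaks the replicate signals had a Spearman rho of 0.957, a description across peaks that share 1 tissue sample.

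**Figure D5:**
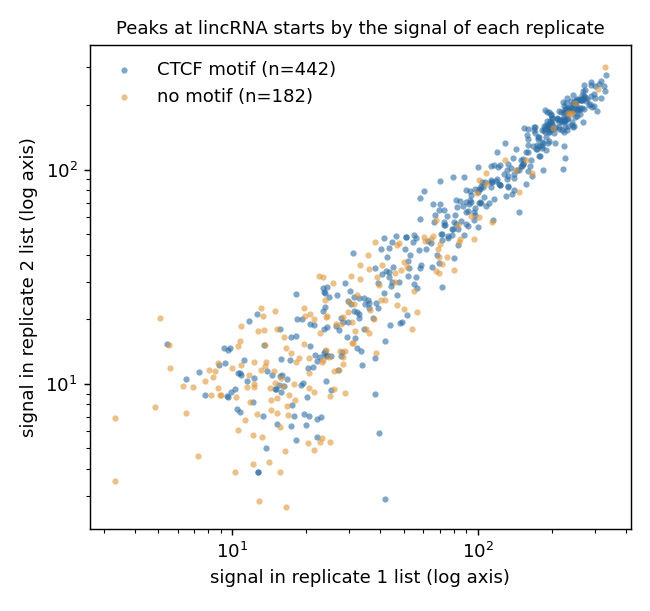
Signal of each peak at a lincRNA start in the replicate 1 list (horizontal axis) and in the replicate 2 list (vertical axis), both on log axes, for the 624 peaks with a summit in both lists, by CTCF motif. Points follow a single band from low to high signal in both lists, with a Spearman rho of 0.957.

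The peaks lay on every autosome. Their number ran from 13 on chromosome 16 to 50 on chromosome 5, and their share of a chromosome's optimal peaks from 0.505% on chromosome 2 to 1.64% on chromosome 13. The distance to the nearest coding start ran from 5086 bp to 1085956 bp, with a median of 40214 bp. Just inside the limit of 1 kb were peaks at Meg3 (997 bp, signal 27.6) and AC117261.1 (993 bp, 54.4), and just outside it were peaks at 1004 bp (22.6) and 1006 bp (216). Just inside the limit of 5 kb were peaks at Gm44053 (5086 bp, 17.1) and Gm26841 (5116 bp, 489), and just outside it were peaks at 4840 bp (396) and 4821 bp (378).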

How the data were processed

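CTCF ChIP-seq peaks of newborn stomach were used as deposited: the authors' optimal and conservative lists after IDR, which compares the ranks of peaks between lists, and the relaxed list of each of the 2 replicates, all in mm10 coordinates, as the text deposited beside each sample states. An optimal peak need not be present in both replicates. Of the 643, 8 had no summit in the whole relaxed list of replicate 1, and 11 had none in that of replicate 2. The deposited signal of each peak is the authors' value and is not scaled between lists. The deposited −log10 of a q-value, from 0.361 to 5.12 among the 643 peaks, and the deposited score of each peak were read and served in no test. The deposited summit offset places the summit. Not given in the sources used here are the aligner, the peak caller and the version and threshold of IDR, and read depth is unknown.

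Genes were those of GENCODE M21, and sequence was that of the matching GRCm38 reference. Work was done in Python 3.11.15 with scipy 1.17.1, numpy 2.4.6, numba 0.67.0, pandas 2.3.3 and matplotlib 3.10.9. Shares were compared by two-sided Fisher's exact tests, and strand and side by exact binomial tests against 50%, with Benjamini-Hochberg adjustment over 11 tests at 0.05. The 95% intervals (exact, Clopper-Pearson) take in counting error alone, and neither peaks nor genes are independent replicates. The random placement of the rule is given as the counted share of positions. The motif and the tests were checked on simulated data.

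The peaks and gene lists were chosen with earlier results of these data known. The text names the 12 strongest peaks, up to 20 more whose lincRNA is on a list or has a name that is not a clone name, the 3 lowest, the 3 closest to a start, and up to 10 listed lincRNAs without a peak. The lists were imprinted, nuclear and stress, and developmental lincRNAs, and small RNA hosts; Snhg20, Neat1, Malat1, Lncpint, Bvht, Platr4, AC141471.3, Gm26751, Gm13003, Gm15892 and Gm12866 were described in addition, after their values were seen. Alternatives were another list, each replicate alone, the stronger 50% of peaks, other distances, other definitions of starts, other motif settings and other criteria for a shared peak or a CpG-rich end. Chromosome X was left out by the rule.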

Additional observations from a re-analysis of the deposited data

Results flagged for a closer look

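Chromosome X lies outside the rule, which takes autosomes only. Of its 1769 optimal peaks, 6 lay within 1 kb of a lincRNA start and more than 5 kb from every coding start. That is 0.339% of them, beside 0.887% of autosomal optimal peaks, a difference that was not tested. The control libraries are not analysed here, and no comparison used these peaks.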

How the results depend on the processing

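No paired analysis was possible because there was 1 group. Over the settings tried and 2 added after seeing the data, 103 values kept their direction and side of the threshold or stayed close. Of the others, 7 counts or shares moved, 4 results became stronger, 2 became weaker and 3 changed direction. The motif shares against coding-start and distal peaks and the excess upstream passed in every alternative run for them. Among the stronger 50% of peaks there were 352 lincRNA-start peaks at 7.38% of genes, and the differences in replicate and conservative support turned to 0.0863 and 0.0167 points (Fisher's exact test, adjusted p = 1.00 for both). Both shares were then 100% at lincRNA starts, against 99.9% and 99.98% of the other peaks, so little room was left for a difference. Within 500 bp there were 396 peaks at 8.49% of genes, and within 2 kb 991 at 18.1%; the ratio to uniform placement was 2.52 and 1.65. With gene 5′ ends only, 11.6% of genes had a peak and the motif lay on the lincRNA strand in 54.9%. The difference in signal from distal peaks passed with the conservative list (5.18 points, Fisher's exact test, adjusted p = 0.0147), within 500 bp (5.98 points, 0.0275), with 5′ ends only (5.09 points, 0.0228) and without replicate 1 (4.84 points, 0.0221); its cause was not tested. Leaving out a replicate gave 631 to 639 peaks at 12.48% to 12.5% of genes, motif differences of 12.7 to 14.7 points from coding starts and -13.6 to -13.0 points from distal peaks, 54.95% to 55.4% of motifs on the lincRNA strand, 55.6% to 56.1% upstream, signal differences of 4.01 to 4.84 points from distal and 12.7 to 13.6 points from coding-start peaks, and replicate support differences of -0.713 to 0.519 points and conservative support differences of -0.467 to -0.289 points. Each replicate alone was taken as its 74283 peaks of highest signal, the size of the optimal list, so the number of peaks in these runs was set by that list. Each peak of such a run is found in its own replicate by definition, so replicate support there depends on the other replicate only. The conservative list gives no value for its own support. Depth is unknown, the replicates share 1 tissue sample, and no RNA was measured.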
